A study of Mus musculus with 6 samples.

Results

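The S100 calcium-binding proteins were followed through 10 genes of the family (S100a1, S100a4, S100a6, S100a8, S100a9, S100a10, S100a11, S100a13, S100a16 and S100b), out of 55401 genes in a table of read counts from mouse aorta. The members were found by gene symbol, and 18 genes of the table carry an S100 name, one of them (S100pbp) not a family member. The 10 were chosen by symbol with the counts of these libraries, and their differences between the groups, already known. Those differences are therefore given as a description, with a standard error and without a p-value. All 10 passed the filter on low counts. Polyadenylated RNA was sequenced from whole aortas of 2 groups with 3 samples each. The first group was ApoE-/- mice, which lack apolipoprotein E. The second was IL16-/-ApoE-/- mice, called DKO (double knockouts) here, which lack interleukin-16 as well. Both groups received a high-fat diet for 24 weeks that began when the mice were 8 weeks old. The comparison addresses how loss of interleukin-16 alters aortic gene expression after that diet. Whether the samples are separate animals is not stated in the sources used here. By its sex-linked transcripts, given below, ApoE-/- 1 was not from the same animal as ApoE-/- 2 or 3. The spread among the other samples of a group may be technical.

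S100 proteins are small proteins of the EF-hand type that bind calcium, mostly form dimers, and change shape so that a surface opens for target proteins. Inside the cell they bind annexins, myosin, ion channels and calcium pumps. Several are also released and act as damage signals through the receptors RAGE (Ager) and Tlr4. In the atherosclerotic wall the family is known for the calprotectin subunits of neutrophils and monocytes, for S100a4 in migrating fibroblasts and in smooth muscle cells that have left the contractile state, and for S100b in Schwann cells and fat cells. Most S100 genes lie together on mouse chromosome 3, and S100b lies on chromosome 10.

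The libraries held 65730552 to 85568269 counts in the ApoE-/- group and 42861980 to 47208779 in DKO, which limits what can be seen of rare transcripts in the second group more. Il16 was at 28.3, 28.7 and 15.1 CPM (read counts per library size on the usual scale, with TMM factors) in ApoE-/- 1, 2 and 3, versus 7.93, 12.1 and 12.2 CPM in DKO. The groups did not overlap, but the gene did not pass edgeR's quasi-likelihood test over all genes (log2 fold change -1.16, SE 0.32, adjusted p = 0.163). The deleted part of the gene is not stated in the sources used here. Apoe itself, targeted in both groups, held 45.0, 24.9 and 20.9 CPM in the 3 ApoE-/- libraries against 138, 183 and 137 CPM in DKO (2.34, SE 0.33, adjusted p = 0.0369), so transcripts of the targeted gene were still counted. The ApoE-/- libraries differed more among themselves, with a biological coefficient of variation of 0.593 against 0.209 in DKO. ApoE-/- 1 stood apart from ApoE-/- 2 and 3. It held 474 CPM of Xist and 0.143 CPM of the Y-linked Ddx3y, against 0.497 to 6.21 and 70.1 to 136 CPM in the other 5 libraries, the pattern of a female among males. Smooth muscle myosin Myh11 reached 1158 CPM in ApoE-/- 1, versus 6355 and 8497 CPM in ApoE-/- 2 and 3, and the fat cell hormone Adipoq at 541 against 66.1 and 49.8 CPM. The DKO libraries held 2031 to 2345 CPM of Myh11 and 324 to 380 CPM of Adipoq. In whole aorta, fewer cells of a type and less RNA per cell cannot be told apart.

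Most of the S100 genes were more abundant in the DKO libraries. Summed over the 10 genes, the ApoE-/- libraries 1, 2 and 3 held 533, 355 and 385 CPM, and the DKO libraries 1000.2, 1008 and 999 CPM, so that the share of all counts was 0.0364% to 0.0522% against 0.100% to 0.102%. In 8 of the 10 genes every DKO library lay above every ApoE-/- library, and in none below. Of all 19833 tested genes 14.9% lay wholly above and 11.5% wholly below, shares that also stand beside the counts of the gene and marker lists further on. The 2 genes whose groups overlapped were S100a10 and S100a16. The median log2 fold change of the 10 genes was 1.82, against -0.05 over all tested genes. Among the genes called by edgeR at an adjusted p under 0.05 were 3 of the 10, S100a4, S100a6 and S100a13, all higher. Over all tested genes 1.14% were called higher and 0.0605% lower. As the 10 genes were picked with this contrast known, nothing is read from these counts. The count of 3, among 238 called genes of all tested, became 9 among 5231 without ApoE-/- 1. It was 1 among 108 without ApoE-/- 2 (S100a6) and 2 among 182 without ApoE-/- 3 (S100a4 and S100a6). It was 0 without any 1 DKO library, where no gene at all was called. In those fits 1920 to 2042 genes had an unadjusted edgeR p under 0.05. The count was 8 among 1697 called genes in DESeq2, 3 among 409 in limma-voom and 7 among 3351 in limma-voom with sample weights.

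**Figure D1:**
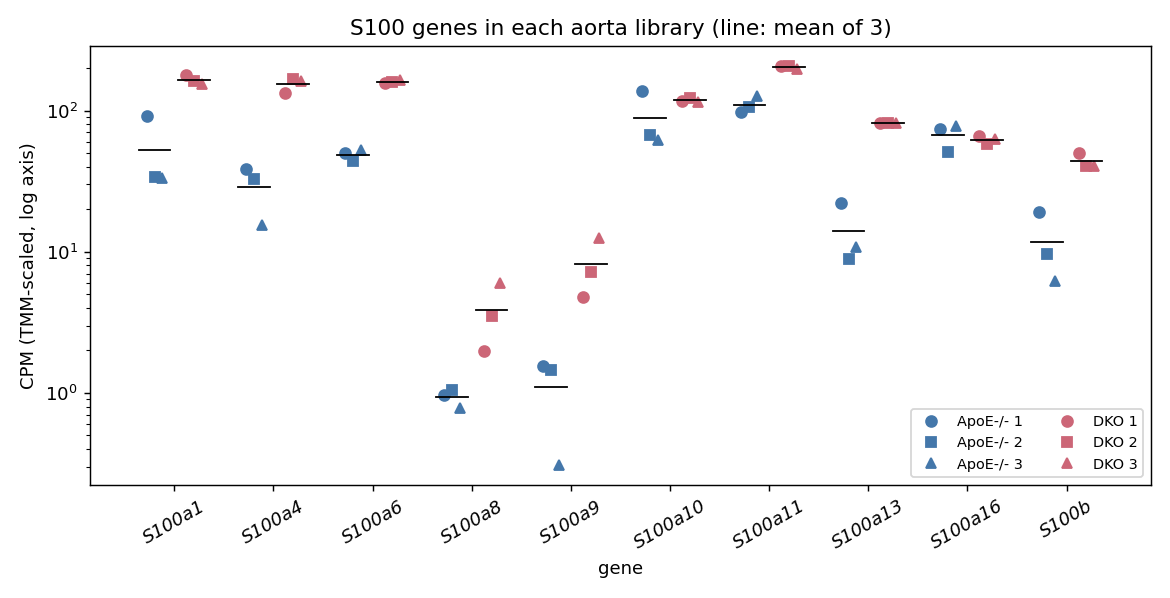
TMM-scaled CPM on a log axis for each of the 10 S100 genes in each of the 6 libraries (blue, ApoE-/-; red, DKO; shapes, sample numbers; black lines, means of 3). The red points lie above all blue points in 8 genes, and the colours mix in S100a10 and S100a16.

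S100a8 and S100a9 encode the subunits of calprotectin, which makes up much of the cytosolic protein of neutrophils and binds Tlr4 and RAGE once released. The windows of their RefSeq promoters (bases 250 before to 50 after the start site) are shown because the pair was higher together and both hold the letters TATAAA, in capitals:
S100a8 (GRCm38.p6 chr3:90668821-90669120, plus strand): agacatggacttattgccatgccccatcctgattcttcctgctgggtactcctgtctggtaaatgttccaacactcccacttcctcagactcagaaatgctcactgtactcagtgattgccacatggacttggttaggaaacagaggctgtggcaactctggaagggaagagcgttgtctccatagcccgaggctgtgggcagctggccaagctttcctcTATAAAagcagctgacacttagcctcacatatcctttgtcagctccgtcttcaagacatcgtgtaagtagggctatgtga
S100a9 (GRCm38.p6 chr3:90695672-90695971, minus strand): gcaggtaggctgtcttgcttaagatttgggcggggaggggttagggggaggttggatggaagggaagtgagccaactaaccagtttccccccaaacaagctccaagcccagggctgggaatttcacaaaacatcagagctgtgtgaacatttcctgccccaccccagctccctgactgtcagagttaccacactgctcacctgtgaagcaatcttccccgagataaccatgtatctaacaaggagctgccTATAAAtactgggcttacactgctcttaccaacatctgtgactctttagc
S100a4 (GRCm38.p6 chr3:90603520-90603819, plus strand): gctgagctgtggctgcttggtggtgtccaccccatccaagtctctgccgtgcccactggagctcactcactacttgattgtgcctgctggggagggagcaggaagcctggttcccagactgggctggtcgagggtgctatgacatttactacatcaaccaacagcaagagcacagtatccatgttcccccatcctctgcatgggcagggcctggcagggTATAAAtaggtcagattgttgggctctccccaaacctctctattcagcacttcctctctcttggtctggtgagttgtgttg
S100a4 is shown beside them as the other member with these letters. TATAAA was searched on both strands and stood in 3 of 10 member windows (2 for S100a16 and 1 each for the others, apart from S100a10), and in 13.6% of all 32851 windows of that length. It began 30 bases before the RefSeq start of S100a8, 31 bases before that of S100a4 and at the listed start of S100a9. The letters TTNCNNAA, a loose form of the site of C/EBP factors, which drive myeloid genes, occurred in the windows of S100a8 and S100a9 and in no other member window, and in 40.7% of all windows.

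S100a8 was the lowest of the 10 genes per base of transcript in 5 of the 6 libraries. It stood at 0.967, 1.05 and 0.783 CPM in ApoE-/- 1, 2 and 3, versus 1.98, 3.53 and 6.03 CPM in DKO 1, 2 and 3. All 3 DKO values were higher, and they differed among themselves 3.04-fold, the widest spread of any of the 10 genes in that group. The fitted log2 fold change was 2.04 (SE 0.48, n = 3 and 3). S100a9 was at 1.54, 1.46 and 0.311 CPM in ApoE-/- and at 4.79, 7.18 and 12.6 CPM in DKO, with the same order of the DKO libraries as S100a8. Its log2 fold change of 2.89 (SE 0.69) was the largest of the 10. In counts, S100a9 exceeded S100a8 in 5 libraries, by 1.59 and 1.40 times in ApoE-/- 1 and 2 and by 2.42, 2.04 and 2.09 times in DKO. In ApoE-/- 3 the ratio was 0.397, on 25 and 63 counts.

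Neutrophil markers are given beside the pair. The 12 markers summed to 7.48 to 54.4 CPM in ApoE-/- and 67.8 to 94.5 CPM in DKO. Of these markers 4 lay wholly above in DKO (Lcn2, Mmp8, Cxcr2 and Retnlg), and 1, the defining surface marker Ly6g, wholly below, with 0.0497 to 0.201 CPM in ApoE-/- and no count in any DKO library, where a count of 0 allows up to 0.0630 to 0.0698 CPM. None of the 11 tested markers passed (0 of 11 at an adjusted p under 0.05 and 0 at an unadjusted p under 0.05 in edgeR). Lipocalin Lcn2 was at 16.1, 26.4 and 1.43 CPM in ApoE-/- versus 40.3, 55.5 and 51.8 CPM in DKO (log2 fold change 1.75, SE 0.87, adjusted p = 0.377). Csf3r, the receptor for granulocyte colony-stimulating factor, was at 22.7, 9.95 and 3.63 against 14.9, 22.0 and 16.3 CPM (0.55, SE 0.61, adjusted p = 0.673). Within DKO, S100a8, S100a9 and the marker sum were each lowest in library 1 and highest in library 3. The most abundant of the markers, Lcn2 and Csf3r, were lowest in library 1 but highest in library 2. The part of these cells in the calprotectin values was not tested.

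S100a4, known as fibroblast-specific protein and as a partner of non-muscle myosin in cell movement, stood at 38.4, 32.5 and 15.4 CPM in ApoE-/- 1, 2 and 3, versus 134, 168 and 163 CPM in DKO. The lowest DKO library lay above the highest ApoE-/- library by far more than the spread within either group. The fitted log2 fold change was 2.43 (SE 0.36, n = 3 and 3), a 5.38-fold difference. Per kilobase of transcript, S100a4 held rank 6, 4 and 6 of the 10 in ApoE-/- and rank 3, 2 and 2 in DKO. The annotation holds another gene model, Gm42674, over S100a4 on the same strand, and it had no count in any library.

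S100a6, or calcyclin, which binds calcyclin-binding protein and annexins and is high in dividing fibroblasts, was the most even of the 10 genes among the ApoE-/- libraries. It was at 49.7, 43.8 and 52.5 CPM in ApoE-/- and at 158, 159 and 165 CPM in DKO. The values differed within a group by 1.20-fold at most in ApoE-/- and 1.05-fold in DKO. The log2 fold change of 1.72 (SE 0.15), a 3.30-fold difference, had the smallest standard error of the 10 and ran from 1.66 to 1.78 when 1 library was left out.

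Macrophage and fibroblast markers are given beside S100a4 and S100a6, since both cell types express these genes. The 12 macrophage markers summed to 7037, 3544 and 569 CPM in ApoE-/- 1, 2 and 3, versus 6505 to 8949 CPM in DKO. Of these, 3 lay wholly above (25%, against 14.9% of all tested genes) and none below, and 0 passed edgeR's test (1 at an unadjusted p under 0.05). Lyz2, the lysozyme of macrophages, was at 3561, 1750.1 and 259 CPM against 3527, 5095 and 3802 CPM, and the protease Ctss at 1081, 679 and 66.4 CPM against 1164, 1423 and 1199 CPM. S100a4 shared with them the low value in ApoE-/- 3, and S100a6 did not, as ApoE-/- 3 was its highest ApoE-/- library. In ApoE-/- 1 the macrophage sum lay within the DKO range, while S100a4 lay below every DKO library. The 10 fibroblast markers summed to 6067 to 9023 CPM in ApoE-/- and 6753 to 7677 CPM in DKO. Of these, 2 lay wholly above and 1 below (20% and 10%, against 14.9% and 11.5% of all tested genes). In edgeR 0 passed the test (0 at an unadjusted p under 0.05). The collagen gene Col1a2 was at 1697, 2517 and 2090.5 CPM against 1591, 1817 and 1619 CPM and the proteoglycan gene Dcn at 1777, 2435 and 1304 against 1646, 1737 and 1632 CPM. The part of either cell type in the S100 values was not tested.

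S100a10 and S100a11 are the annexin-binding members, S100a10 in a stable complex with annexin A2 that also holds plasminogen at the cell surface, and S100a11 with annexins A1 and A2. They lie side by side on chromosome 3, at 93555080 to 93564643 and 93520488 to 93526287. S100a11 had the highest level per kilobase of the 10 in 5 of the 6 libraries. It stood at 97.4, 105 and 126 CPM in ApoE-/- 1, 2 and 3, versus 207, 205 and 198 CPM in DKO. The groups were far apart relative to their spread, with a log2 fold change of 0.89 (SE 0.17, n = 3 and 3). S100a10 was at 138, 67.7 and 62.0 CPM in ApoE-/- and at 118, 123 and 116 CPM in DKO. ApoE-/- 1 lay above all DKO libraries and ApoE-/- 2 and 3 below them, and the log2 fold change of 0.41 (SE 0.32) became 0.87 without ApoE-/- 1, 0.25 without ApoE-/- 2 and 0.21 without ApoE-/- 3. Per kilobase, S100a10 held rank 1, 2 and 2 in ApoE-/- and rank 5 in each DKO library.

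The binding partner annexin A2 (Anxa2) was at 375, 350 and 271 CPM in ApoE-/- and at 478, 528 and 492 CPM in DKO, with no overlap (log2 fold change 0.59, SE 0.22, n = 3 and 3, edgeR adjusted p = 0.283), and did not pass. Of 15 annexins and other intracellular S100 partners 0 passed in either direction, and 1 had an unadjusted p under 0.05. Their median log2 fold change was 0.05, with 4 genes wholly above and 1 below (26.7% and 6.67%, against 14.9% and 11.5% of all tested genes). The calcium release channel Ryr1, a target of S100a1, came next by p, at 1.36, 0.631 and 0.224 CPM against 1.45, 0.714 and 11.3 CPM (2.60, SE 1.18, adjusted p = 0.348), with DKO 3 alone far above the rest. In the plasmin system, which S100a10 binds to on the cell surface, 0 of 7 tested genes passed and the median log2 fold change was 0.66. Its leading genes by p were the plasmin inhibitor Serpinf2, at 0, 0.258 and 0.149 CPM against 2.97, 3.32 and 3.56 CPM (4.59, SE 1.10, adjusted p = 0.124), and the urokinase receptor Plaur, at 24.6, 13.9 and 5.33 CPM against 25.5, 30.2 and 28.4 CPM (0.94, SE 0.50, adjusted p = 0.403).

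S100a1 and S100a13 stand head to head. S100a1, which binds the ryanodine receptor and SERCA pump in heart and skeletal muscle, is read on the minus strand, and S100a13, which takes part in the release of FGF1 and interleukin-1 alpha by a route without a signal peptide, on the plus strand. Their GENCODE starts are 43 bases apart, at 90514392 and 90514435. The stretch shared by their promoter windows is shown for that reason, with the bases from one start to the other in capitals:
S100a1 and S100a13 (GRCm38.p6 chr3:90514281-90514484, plus strand): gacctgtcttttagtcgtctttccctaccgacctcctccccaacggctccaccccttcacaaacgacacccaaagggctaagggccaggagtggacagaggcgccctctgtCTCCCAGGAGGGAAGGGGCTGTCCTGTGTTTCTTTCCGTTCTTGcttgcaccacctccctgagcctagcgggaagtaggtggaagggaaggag
The TATA box letters TATAAA (in 13.6% of all windows), the CCAAT box letters CCAAT (37.4%), the GC box GGGCGG (35.7%), the AP-1 site TGANTCA (7.81%), the E-box CACGTG (7.15%) and the C/EBP letters given above (40.7%) were searched on both strands and stood in the window of neither gene, which says only that these letters are not there.

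S100a13 stood at 22.3, 8.85 and 10.8 CPM in ApoE-/- 1, 2 and 3, versus 81.9, 81.8 and 82.0 CPM in DKO. The DKO values had an SD of 0.123 CPM, less than counting error alone would give at 3525 to 3896 counts per library. All were above ApoE-/- 1, the highest of the others. Its fitted log2 fold change was 2.55 (SE 0.36, n = 3 and 3), a 5.84-fold difference. S100a1 was at 91.5, 34.0 and 33.0 CPM in ApoE-/- and at 179, 161 and 153 CPM in DKO, again with ApoE-/- 1 nearest to the DKO libraries. Its log2 fold change was 1.64 (SE 0.43), and 2.29 without ApoE-/- 1. The ratio of S100a1 to S100a13 counts was 4.10, 3.84 and 3.05 in ApoE-/- and 2.18, 1.97 and 1.87 in DKO, without overlap, so the 2 genes were both higher but not by the same factor.

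Striated muscle markers are given beside S100a1. The 11 cardiac markers summed to 42.5 to 82.6 CPM in ApoE-/- and 424, 203 and 353 CPM in DKO 1, 2 and 3, with 10 of 11 wholly above. The 11 skeletal muscle markers summed to 4.93 to 12.7 CPM and to 92.1, 22.8 and 404 CPM, also with 10 of 11 wholly above. Of the cardiac markers 2 (Sln and Tnnt2) passed edgeR's test, both higher, and of the skeletal markers 0 passed and 10 had an unadjusted p under 0.05. The cardiac myosin Myh6 was at 45.2, 8.12 and 13.5 CPM against 161, 74.2 and 165 CPM and Tnnt2 at 11.7, 13.7 and 18.0 against 57.5, 36.5 and 67.1 CPM. The skeletal muscle actin Acta1 was at 2.41, 0.301 and 0.833 CPM against 17.3, 4.20 and 81.8 CPM and the calcium pump Atp2a1 at 1.17, 0.330 and 0.746 against 10.1, 2.44 and 57.0 CPM. These markers differed more between DKO libraries than S100a1, which varied 1.16-fold. S100a1 was highest in DKO 1 and lowest in DKO 3. Neither marker sum had that order, though some single cardiac markers of the list did. The part of muscle tissue in the S100a1 values was not tested.

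S100b, the glial member, also made by fat cells, stood at 19.0, 9.71 and 6.16 CPM in ApoE-/- 1, 2 and 3, versus 50.4, 40.4 and 40.5 CPM in DKO. The groups did not overlap, and the ApoE-/- libraries differed 3.09-fold. Its fitted log2 fold change was 1.91 (SE 0.41, n = 3 and 3), and 2.46 without ApoE-/- 1. The far end of S100b overlaps the end of Dip2a on the opposite strand, and no source used here states the strand setting of the counting, so reads of the 2 genes may be mixed. Dip2a was at 39.8 to 40.5 CPM in ApoE-/- and 33.3 to 35.6 CPM in DKO.

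Schwann cell and fat cell markers are given beside S100b. The 12 Schwann cell markers summed to 77.8, 74.7 and 98.2 CPM in ApoE-/- and 218, 203 and 175 CPM in DKO, and 8 of 12 lay wholly above and none below. Myelin basic protein Mbp was at 31.3, 15.3 and 15.9 CPM against 62.1, 56.3 and 50.5 CPM (log2 fold change 1.44, SE 0.31, adjusted p = 0.103). It did not pass, and 0 of the 12 did (5 at an unadjusted p under 0.05). The 10 fat cell markers summed to 7420, 1202 and 1281 CPM in ApoE-/- 1, 2 and 3, versus 6016 to 6348 CPM in DKO, with ApoE-/- 1 the highest of the 6, and 1 of the 10 passed, leptin (Lep), which was chosen for naming after its values were seen, at 0.871, 1.09 and 2.05 against 22.0, 18.7 and 19.3 CPM. Their top genes were Fabp4, at 3002, 365 and 426 against 3489.7, 3635 and 3402 CPM, and Cfd, at 1739, 131 and 248 against 858, 838 and 815 CPM. S100b in ApoE-/- 1 lay below every DKO library, as did Fabp4, while Cfd in ApoE-/- 1 lay above them. The part of either cell type in the S100b values was not tested.

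S100a16, an EF-hand protein linked to fat cell formation, differed between the groups by less than the spread between replicates. It was at 73.8, 50.8 and 77.8 CPM in ApoE-/- and at 65.6, 57.8 and 63.1 CPM in DKO, which lay inside the ApoE-/- range. Its fitted log2 fold change was -0.12 (SE 0.19, n = 3 and 3), and it turned positive (0.13) in limma-voom with sample weights. Per kilobase, S100a16 held rank 5, 5 and 4 in ApoE-/- and rank 7 in each DKO library.

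Along chromosome 3, neighbouring genes differed in their values. S100a1 and S100a13 had log2 fold changes of 1.64 and 2.55, and S100a16 behind them -0.12. Then came S100a4, S100a6, S100a8 and S100a9 between 1.72 and 2.89, with S100a5 between S100a4 and S100a6 at no count in all 6 libraries. The scarce S100a14, between S100a13 and S100a16, was at -1.33 (SE 1.41). S100a7a, also scarce and between S100a6 and S100a8, was at -0.64 (SE 0.58). S100a11 and S100a10, 2824766 bases beyond S100a9, had 0.89 and 0.41.

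**Figure D2:**
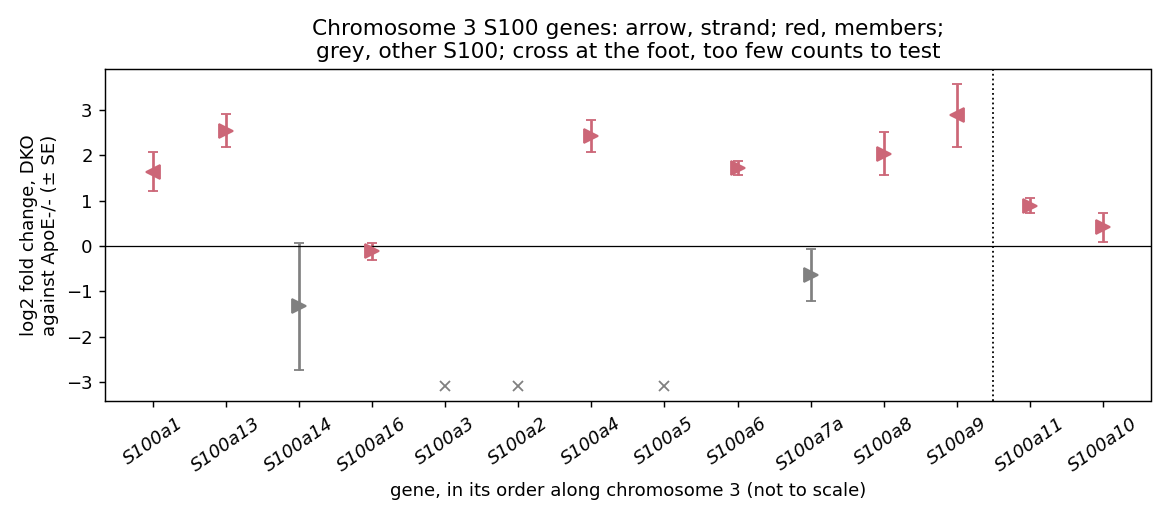
Log2 fold change of DKO against ApoE-/- (± SE, n = 3 and 3) for the 14 chromosome 3 S100 genes in their order (arrowhead, strand; red, the members; grey, other S100 genes; crosses, 3 genes not tested; dotted line, the gap before S100a11). Among the members, S100a16 at -0.12 has S100a13 at 2.55 on one side and S100a4 at 2.43 on the other.

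The other S100 genes were scarce or absent. S100a2, S100a5 and S100z had no count in any of the 6 libraries, which allows up to 0.0358 to 0.0698 CPM in a library for counting error only. S100a3, a gene of hair follicles, held 43, 4 and 13 counts in ApoE-/- and 8, 7 and 3 in DKO and was not tested. S100a7a, a gene of skin, was at 0.967, 2.27 and 4.54 CPM against 1.71, 1.91 and 1.37 CPM (log2 fold change -0.64, SE 0.58, edgeR adjusted p = 0.609), and S100a14, of surface epithelia, at 0.537, 0.473 and 0 against 0.0922, 0.210 and 0.0931 CPM (-1.33, SE 1.41, adjusted p = 0.658). Neither passed. The vitamin D-dependent calbindin S100g was the exception. It had no count in ApoE-/- and rose to 7.83, 8.27 and 8.91 CPM in DKO, at least 650-fold higher against 3 counts over the summed ApoE-/- libraries (8.34 ± 0.543 CPM, SD, n = 3, edgeR adjusted p = 0.00956). Kidney tubule markers moved with it: the 10 markers summed to 0.174 to 1.13 CPM in ApoE-/- and 536 to 599 CPM in DKO, all 10 wholly above and 9 past the test, and 7 had no count in ApoE-/- (Umod, Slc12a1, Miox, Slc22a12, Klk1 and the most abundant, Kap and Acsm2). The part of kidney tissue in S100g, and in the 10 S100 genes described above, was not tested. All 3 DKO libraries held these markers at similar sums, so kidney tissue and genotype cannot be told apart in this design. S100g lost its call without any 1 DKO library (adjusted p = 0.133 to 0.148).

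Of 9 receptor genes for released S100 proteins 0 passed edgeR's test in either direction, 1 had an unadjusted p under 0.05 and the median log2 fold change was -0.12. The leading gene by p was the Tlr4 co-receptor Ly96, at 2.60, 1.65 and 2.47 CPM in ApoE-/- and 3.66, 4.32 and 4.10 CPM in DKO (0.84, SE 0.31, adjusted p = 0.273), followed by neuroplastin Nptn, at 211, 299 and 388 against 233, 218 and 237 CPM (-0.38, SE 0.26, adjusted p = 0.498). Ly96 was higher in every DKO library and Nptn overlapped, and neither passed. Of 19 tested EF-hand genes outside the family 0 passed and 4 had an unadjusted p under 0.05, with a median log2 fold change of 0.08. They were led by calbindin Calb1, also a kidney tubule marker (0 to 0.167 against 4.74 to 5.93 CPM, 5.78, SE 1.01, adjusted p = 0.0625), and by the integrin-binding Cib1 (9.62 to 17.0 against 22.5 to 24.9 CPM, 0.98, SE 0.26, adjusted p = 0.154). Among the 7 fused-type S100 genes of skin, 1, Tchh, had enough counts to be tested (0.71, SE 1.28, adjusted p = 0.802). The S100P-binding protein gene S100pbp ran from 26.1 to 39.7 CPM in ApoE-/- and from 25.8 to 31.7 CPM in DKO (-0.26, SE 0.20, adjusted p = 0.550).

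Transcript length bears on these differences, because the S100 transcripts are short, with a median over each gene's transcripts of 486 bases (S100a8) to 1484 bases (S100b), and short transcripts had higher fold changes throughout the table. Of 20 length bins of tested genes, the shortest had a median log2 fold change of 1.09 and the longest -0.28. The other 4718 tested genes within the members' length range had a median log2 fold change of 0.20, with 24.5% wholly above and 5.43% wholly below. For 1872 genes as long as the members other than S100b the median was 0.39, with 33.0% wholly above.

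Set beside genes within 10% of their own length, the members took different places. S100a13 lay above 96.3% of 672 such genes, S100b above 95.7% of 1525, S100a9 above 95.2% of 435 and S100a4 above 89.9% of 407. S100a1, S100a6 and S100a8 lay above 85.2%, 83.5% and 80.2%. S100a11, at 0.89 against a median of 0.75 for its length, lay above 55.2%, S100a10 above 41.9% and S100a16 above 29.2%. These places are descriptions of single genes and not tests.

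**Figure D3:**
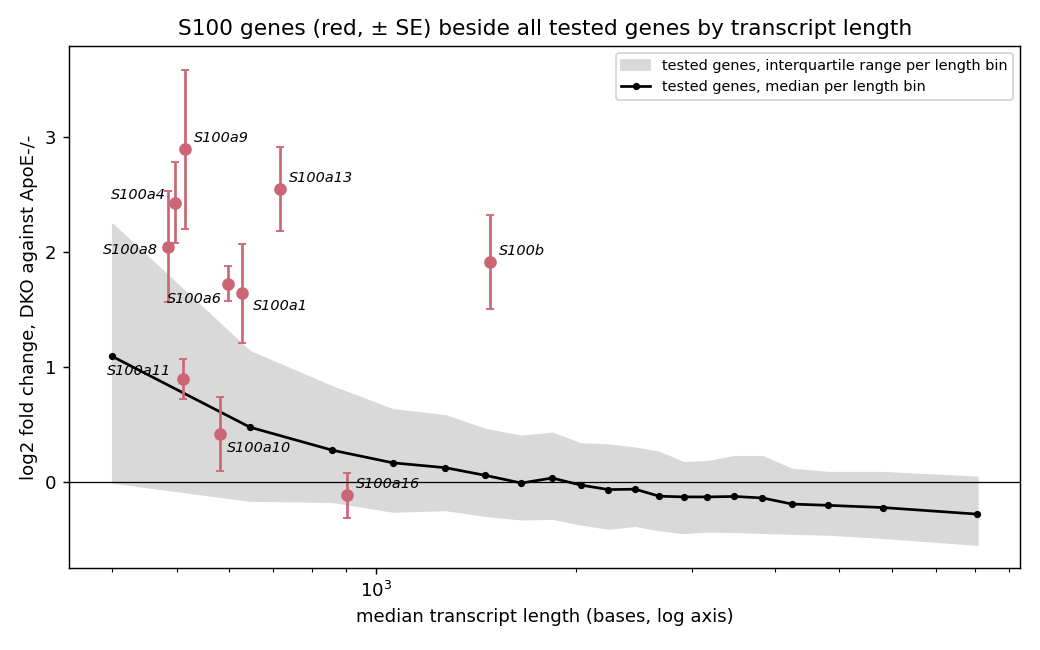
Log2 fold change of DKO against ApoE-/- by median transcript length in bases (log axis), with the 10 S100 genes in red (± SE, n = 3 and 3) and all tested genes in 20 length bins (black, median; grey, interquartile range). The median falls from 1.09 in the shortest bin to -0.28 in the longest, and S100a10, S100a11 and S100a16 lie within the grey band.

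With each library's trend of expression on transcript length removed, 7 of the 10 genes kept a positive log2 fold change and their median was 0.99, while the median of all tested genes shifted from -0.05 to -0.20. S100a9 was then at 1.97 (SE 0.66), S100a13 at 1.95 (SE 0.24), S100b at 1.69 (SE 0.32), S100a4 at 1.49 (SE 0.32), S100a8 at 1.05 (SE 0.49), S100a1 at 0.94 (SE 0.31) and S100a6 at 0.88 (SE 0.17). S100a11 came to -0.08 (SE 0.23), S100a10 to -0.38 (SE 0.22) and S100a16 to -0.61 (SE 0.19). Against the values above, S100a4, S100a6, S100a8, S100a10, S100a11 and S100a16 moved by more than the spread between replicates. Of the 3 called genes, S100a13 was called in this setting too, in which 124 of 19833 genes of the table were. As the members were picked with this contrast known, nothing is read from that call. The trend with length and the genotype cannot be told apart in this design.

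**Figure D4:**
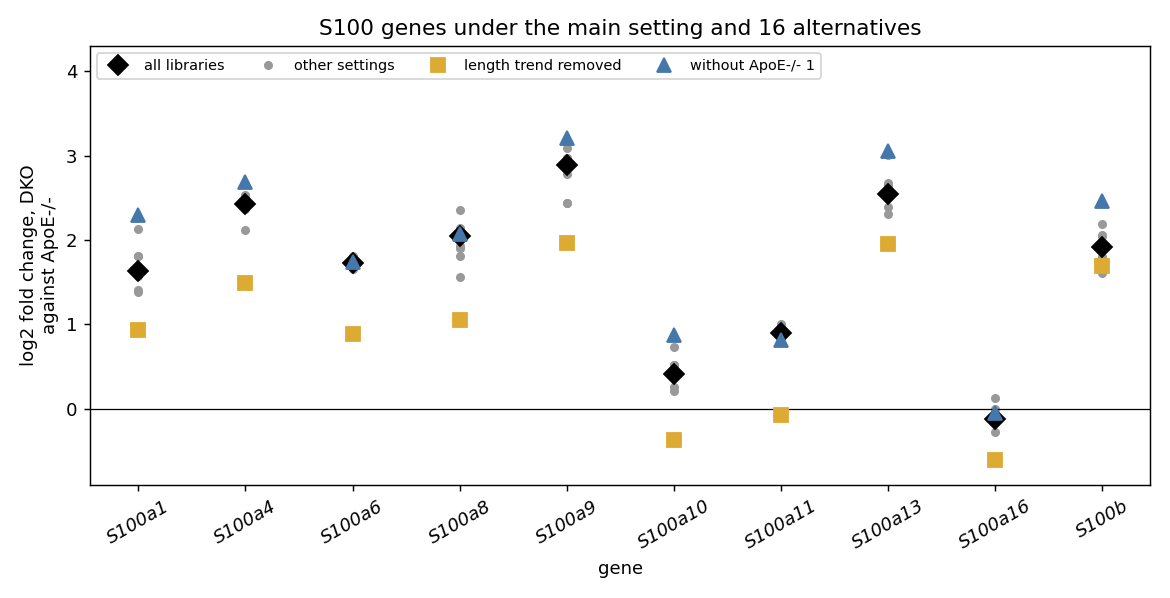
Log2 fold change of each S100 gene with all libraries (black diamond), with the length trend removed (yellow square), without ApoE-/- 1 (blue triangle) and under the other 14 settings (grey). The yellow squares lie lowest in 9 genes, with S100b the exception, and below 0 in S100a10, S100a11 and S100a16.

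The genes whose pattern over the 6 libraries was most like each member were sought by Pearson's r of log2 CPM. With 6 libraries in 2 groups high values are common: between 7 (S100a8) and 304 (S100a1) of 11341 or 11342 genes had an r over 0.95 with a separated member, so the names describe these libraries only. For S100a1 they were the mitochondrial genes Atp5j2 and Cox6b1 and the EF-hand gene Cib1 (r = 0.999 each). S100a13 had Romo1, Pin4 and Anapc13 (0.998 to 0.999), and S100a6 had the galectin gene Lgals1 (0.999), Dynll2 and the ribosomal Rpl38. S100a11 had Fam221b, Trp53inp2 and leptin (Lep, 0.997), S100a4 had Ear2, Wdr89 and Ggt1 (0.995 to 0.997), and S100b the synaptic vesicle gene Syp (0.999), mt-Tp and H2-Ob. The calprotectin genes had looser matches and shared none of them, with Trim16, Lrrc28 and Pdzd11 (0.971 to 0.974) for S100a8 and Htra4, Pkp2 and Tm9sf4 (0.986 to 0.989) for S100a9. S100a10 falls outside the rule for this search and was looked up after its values had been seen. It had the most genes with an r over 0.95 of all 10 members, 654 of 11341. Its 3 closest matches were Mpdu1 (0.999), adiponectin (Adipoq, 0.998) and Echs1 (0.998). Both S100a10 and Adipoq were highest in ApoE-/- 1.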

How the data were processed

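The authors deposited a single table of raw read counts per Ensembl gene ID for the 6 aorta samples, not normalized (its values are whole and its columns differ in total). Polyadenylated RNA was captured and strand-marking libraries were made, per the labels' protocols. Per the submitters' processing notes, the tools included cutadapt, StringTie and HISAT2. Build, annotation, counting program and strand setting: not given in the sources used here. Groups and sample numbers come from the sample titles.

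Of 55401 IDs, 55141 matched a symbol in GENCODE M21 (GRCm38), from which positions and transcript lengths (median over basic transcripts) were taken. Promoter sequences are those of RefSeq on GRCm38.p6, matched by symbol for 9 of the 10 genes. Genes were kept by filterByExpr (minimum count 10, minimum total 15). Counts were scaled by TMM and compared by edgeR's quasi-likelihood test (robust, two-sided, no covariate) p-values being adjusted by the Benjamini-Hochberg method over 19833 genes, with a threshold of 0.05. Standard errors were derived from the fold change and the F statistic (log2 value over root F). CPM is TMM-scaled, and log2 CPM used a prior count of 2. For the length setting, a loess trend (span 0.5) of each library's deviation on log2 length was added as an offset. The fit was tested on simulated data with the same spread in both groups. These libraries differ there (biological coefficient of variation 0.593 in ApoE-/- against 0.209 in DKO). That test therefore cannot tell how the fit behaves on them. A count of 0 was read as allowing 3 counts.

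The members, gene lists and tests were chosen with earlier results of these data known. Named from each gene list are up to 4 genes past the threshold or, where none passed, the 2 with the smallest p. Named from each marker list are the 2 most abundant and those at 0, apart from 1 Schwann cell marker that is not reported here. The epithelial, smooth muscle and endothelial marker lists were run as well: the epithelial sum was 8.51 to 85.3 CPM in ApoE-/- against 16.8 to 24.8 in DKO, the smooth muscle sum 4605 to 29793 and 9204 to 10423, and the endothelial sum 667 to 1150 and 1270 to 1307. Pattern matches were sought among tested genes with a mean of at least 5 CPM. Alternatives were other scalings, filters and tools, a replicate block, the length setting and leaving out each library. R 4.3.3, edgeR 4.0.16, limma 3.58.1, DESeq2 1.42.0, Python 3.11.15 and matplotlib 3.10.9 were used.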

Additional observations from a re-analysis of the deposited data

How the results depend on the processing

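Over 16 alternatives the median log2 fold change of the 10 S100 genes stayed positive, between 0.99 with the length trend removed and 2.18, and between 1.69 and 2.18 when 1 library was left out. Only the length setting moved it by more than the spread between replicates. The number of genes called over the whole table, 238, was 1697 in DESeq2, 409 in limma-voom, 3351 in limma-voom with sample weights and 124 with the length trend removed, and ran from 0 to 5231 when 1 library was left out (0 without any 1 DKO library, 5231 without ApoE-/- 1, 108 without ApoE-/- 2). With the sample number as a replicate block, edgeR called 0 genes, with 2327 at an unadjusted p under 0.05, and S100g had an adjusted p of 0.179. Deviations from the group means of same-numbered samples correlated at -0.04, -0.03 and -0.01, and no sample correlated best with its own number. With 3 samples per group this check cannot decide whether the numbers pair the samples. S100a14 reversed in limma-voom (0.25) and S100a7a without ApoE-/- 3 (range -1.03 to 0.039 with 1 library left out), and the cause was not tested. Depth limits S100a8 and S100a9 most among the 10 genes, with 25 counts in the library with the least S100a9.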
